A study of Mus musculus with 4 samples.

Results

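Small nucleolar RNAs (snoRNAs) and small Cajal body RNAs (scaRNAs) were examined in total RNA from circulating monocytes (MON) and neutrophils (NEU) of adult C57BL6 mice. The study's supplement gives males at 5 to 8 weeks of age for its primary blood cells. The members were the gene entries named Snord, Snora or Scarna that held an expected count of at least 5 in both libraries of at least one cell type. The expected count is the estimated number of reads that came from a gene. Of 43346 gene entries, 147 carried one of these names, and 66 of them met the rule. The members were thus selected on their counts, and those that met the rule in one cell type only were selected where they were high. They were 21 of 97 Snord entries, 37 of 41 Snora entries and 8 of 9 Scarna entries.

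The study mapped regulatory elements and transcripts across mouse blood cell types, and 4 of its libraries, 2 per cell type, were used here. MON were sorted as Gr-1+Mac-1+ cells from the mononuclear fraction of peripheral blood, and NEU were taken from the cell pellet after lysis of red cells, without a sort. The study's supplement gives the sorted monocytes as Ly6g-, CD11b+. No treatment or allele is named for any of the mice. The study's methods count as replicates both cells taken from separate groups of mice and sorter aliquots of one group that were processed apart, and which of these applies to the libraries used here was not found. The p-values therefore measure the spread between these libraries, which may be technical. The RNA was depleted of ribosomal RNA and primed with random hexamers, so small RNAs entered the libraries without a size selection step named in the protocol. In bulk RNA, fewer cells of a type and less of an RNA per cell cannot be told apart.

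SnoRNAs guide chemical changes of ribosomal RNA in the nucleolus. C/D box RNAs (Snord genes) carry short C and D boxes near their ends and guide ribose methylation by fibrillarin, whereas H/ACA box RNAs (Snora genes) end in an ACA triplet and guide the conversion of uridine to pseudouridine by dyskerin. A few members of both classes act in cleavage of the ribosomal RNA precursor instead, and scaRNAs carry out the same modifications on spliceosomal RNAs in Cajal bodies. In mammals most of these RNAs lie in introns, often of genes for ribosomal proteins and translation factors, and are trimmed out of the host's intron after splicing.

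Some of the members called below follow 5′ to 3′ as DNA letters, to let the box elements and the lengths be seen. The letters are the GENCODE M21 transcript sequences on mm10. Capitals mark a TGATGA (C box) within the first 20 bases, a CTGA (D box) within the last 20 bases, or an ACA that lies 2 to 4 bases from the end.
Snord14c: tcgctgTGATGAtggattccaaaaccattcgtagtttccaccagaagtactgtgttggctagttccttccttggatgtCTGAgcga
Snord14d: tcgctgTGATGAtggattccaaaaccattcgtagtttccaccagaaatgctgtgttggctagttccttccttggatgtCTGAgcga
Snord47: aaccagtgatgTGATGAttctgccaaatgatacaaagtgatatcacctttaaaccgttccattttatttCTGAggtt
Snora15: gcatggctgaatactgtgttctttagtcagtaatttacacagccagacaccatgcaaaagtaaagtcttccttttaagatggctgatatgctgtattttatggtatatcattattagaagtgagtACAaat
Snora57: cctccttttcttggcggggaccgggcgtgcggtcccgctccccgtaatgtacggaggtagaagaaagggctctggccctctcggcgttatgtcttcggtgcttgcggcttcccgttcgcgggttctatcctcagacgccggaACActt
Scarna6: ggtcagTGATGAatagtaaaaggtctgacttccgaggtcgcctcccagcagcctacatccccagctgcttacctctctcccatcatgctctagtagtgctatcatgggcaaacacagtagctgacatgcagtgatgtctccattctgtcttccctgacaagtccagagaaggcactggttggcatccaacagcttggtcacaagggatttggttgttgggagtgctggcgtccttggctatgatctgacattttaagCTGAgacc
Scarna13: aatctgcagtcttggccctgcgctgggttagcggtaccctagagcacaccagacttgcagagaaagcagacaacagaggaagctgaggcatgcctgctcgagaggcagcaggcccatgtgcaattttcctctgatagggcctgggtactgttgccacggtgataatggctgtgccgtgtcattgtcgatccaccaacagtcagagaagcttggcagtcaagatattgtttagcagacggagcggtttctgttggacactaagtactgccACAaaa

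Snord14c (chr9:40803583-40803668, plus strand) and Snord14d (chr9:40803995-40804080, plus strand) lie in introns of the chaperone gene Hspa8 and differ at 2 of 86 bases. Snord47 (chr1:161038082-161038158, plus strand) lies in an intron of the noncoding gene Gas5, Snora15 (chr5:129794546-129794676, plus strand) in one of the chaperonin gene Cct6a, and Scarna6 (chr1:87784556-87784820, plus strand) in one of the autophagy gene Atg16l1. Snora57 (chr19:8888538-8888685, minus strand) had no annotated gene on its strand around it, and Scarna13 (chr12:105031075-105031349, minus strand) lies within the span of the noncoding gene Snhg10. Scarna6 carries C and D boxes at its ends and Scarna13 an ACA near its end. Only the ends were searched, so a domain of the other type inside either RNA would not have been seen.

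The box letters were counted in each class. Snord and Snora name the C/D and H/ACA box classes, so the counts describe the entries and were not a test of the classes. The D box letters were found in 21 of 21 Snord members and the C box letters in 16 of 21, whereas the ACA was found in 35 of 37 Snora members and the C box in 0. The D box letters were also in 4 of the 37 Snora members, and the ACA was in 1 of the 21 Snord members. Among 4033 other annotated short RNAs of 60 to 420 bases (miRNA, snRNA and misc_RNA transcripts), 0.174% held the C box, 7.29% the D box and 6.0% the ACA in the same windows. Of the 8 Scarna members, 3 held both C and D boxes and 4 the ACA. The search ran along the transcript strand only, and a missing match says only that these letters were not in the window.

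The libraries held between 20549572 and 26076261 expected counts. The cell type markers followed the labels, with summed monocyte markers at 14904 and 14678 counts per 1000000 counts (CPM) in the MON libraries against 1674 and 1733 in NEU, and summed neutrophil markers at 92.1 and 107 CPM in MON against 7295 and 7443 in NEU. Markers of other cells also differed between the groups. The 8 NK cell markers summed to 2446 and 2427 CPM in MON and to 23.7 and 23.1 in NEU, and the 8 B cell markers to 348 and 421 CPM in MON and to 2675 and 2617 in NEU. Of the 8 T cell markers 5 were called higher in NEU, and Lck, which was at 67.1 and 72.4 CPM in MON and 22.5 and 23.0 in NEU, was called higher in MON. Their sum was 81.4 and 88.6 CPM in MON and 126 and 134 in NEU, so Lck held most of it in MON. The platelet and red cell markers summed to 1160 and 1047 CPM in MON and 2001 and 1984 in NEU. Ly6g, a granulocyte surface protein, and Gp9, a platelet receptor subunit, were at 0 counts in both MON libraries, and no other marker of these 6 lists was at 0 in both libraries of a group. The part of these other cells in the results below was not tested.

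The libraries of one cell type also stood apart from each other in their shortest RNAs, and this bears most on the Snord genes under 100 bases. The 11 members of 80 to 99 bases summed to 105 and 181 CPM in the MON libraries and to 4.08 and 69.4 CPM in the NEU libraries, so NEU library 2 held 17.0 times the level of NEU library 1. For the 3 members of 60 to 79 bases, at 0.324 and 2.77 CPM, the ratio was 8.57. It was smaller for longer members. The ratio was 2.38 for the 3 members of 100 to under 120 bases, 2.0 for the 38 members of 120 to under 150 bases and 1.02 for the 3 members of 150 to 199 bases. The 7 members of 200 bases or more other than Snora43 gave 1.23. The 985 other gene entries of 80 to 99 bases, which carry none of the 3 names, showed a ratio of 22.3 between the NEU libraries, at 0.270 and 6.02 CPM, and of 7.82 between the MON libraries, at 6.38 and 49.9 CPM. The ratio between the MON libraries was 1.72 for the members of 80 to 99 bases and 2.30 for those of 120 to under 150 bases, MON library 2 being the higher in both.

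**Figure D1:**
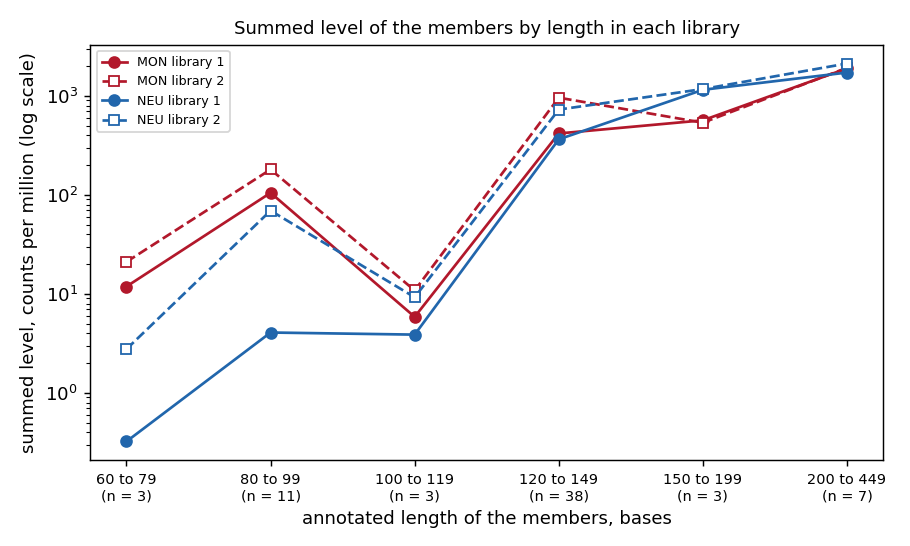
Summed level of the members (CPM, log scale) by annotated length in each of the 4 libraries, with the number of members in each class under the axis; Snora43, whose entry also holds a long transcript, is left out. NEU library 1 falls far below the other libraries under 100 bases, and from 150 bases on the 2 libraries of each cell type lie close together.

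Length also marked which entries became members. Of 88 entries shorter than 100 bases 14 met the rule, against 3 of 6 entries of 100 to under 120 bases and 49 of 53 of 120 bases or more. The Snord genes were the short ones, with 13 members among 86 entries under 100 bases and 8 among 11 longer entries. Of the 81 entries that were not members, 71 were at 0 counts in all 4 libraries, and the largest count in any of the other 10 was 58. The members nearest the limit were Snora78, whose lower deciding count was 5, Snora75 at 7.86 and Snord35b at 9, and just outside were Snord13 at 4 and Snord71 at 2. For 13 members, 12 Snord and Scarna17, the deposited effective length and TPM (transcripts per 1000000 transcripts, a level corrected for length) were 0 in every library although reads had been assigned to them, so their level is readable only from the counts.

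Most of the members passed the rule in both cell types. These were 45, while 13 passed in MON only and 8 in NEU only. The split differed by class, since 10 of the 21 Snord members passed in MON only and 1 in NEU only, against 2 and 6 of the 37 Snora members. A member that passed in one cell type only was chosen where it was high, so the directions of those 21 are a description.

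Between genes, levels were compared as CPM per kilobase of annotated length. Scarna10 (the U85 RNA, which guides changes in the spliceosomal U5 RNA) stood highest by its mean, at 3113 and 3206 in MON and 3098 and 3541 in NEU. Snora81, in an intron of the translation factor gene Eif4a2, followed at 1968 and 1803 in MON and 2343 and 3388 in NEU, and Snora74a (the U19 RNA) at 961 and 935 in MON and 3470 and 2664 in NEU. The NEU libraries of these 3 overlapped, whereas in MON they did not, and Scarna10 lay above every other member in both MON libraries. The highest Snord genes on this scale were Snord17, at 1103 and 1428 in MON and 1396 and 2278 in NEU, and Snord15b, at 898 and 2448 in MON and 734 and 1562 in NEU. Both could not be put in order, since their ranges overlapped in both cell types.

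**Figure D2:**
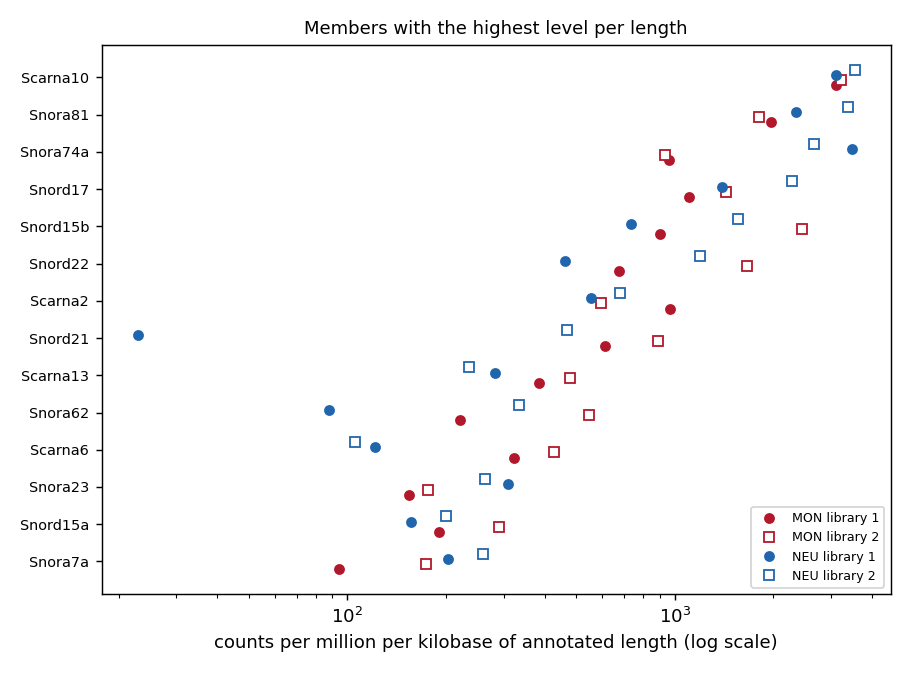
Level of the 14 members that stood highest per length, in CPM per kilobase of annotated length (log scale), one point per library. Scarna10 lies between 3098 and 3541 in all 4 libraries, and Snord21, the shortest RNA shown, falls to 22.9 in NEU library 1.

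TPM, which divides by the part of a transcript that a fragment can start in, gave another order. The mean TPM of Snord22 was 4286, with 3658 and 7214 in MON and 2106 and 4167 in NEU. The mean was 3225 for Snord15b, 2826 for Snora81 and 1435 for Scarna10. The effective length behind these values was 5.43 to 7.63 bases for Snord22, against an annotated length of 126 bases, and 152 to 168 bases for Scarna10. The order of snoRNAs by level thus rested on the length used.

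Summed over all 66 members, the level was 3013 and 3643 CPM in the MON libraries and 3256 and 4115 CPM in the NEU libraries, which overlapped. The Snord members summed to 629 and 1160 CPM in MON and to 529 and 1031 in NEU, also overlapping. The Snora members summed to 779 and 946 CPM in MON and to 1377 and 1556 CPM in NEU, so both NEU libraries lay above both MON libraries. That difference was carried by Snora81 and Snora74a. Without the 3 highest of all members, which include both, the Snora sums were 240 and 442 CPM in MON and 280 and 430 CPM in NEU. The Scarna members summed to 1606 and 1537 CPM in MON and to 1350 and 1529 CPM in NEU, with both MON libraries higher by a small margin. The sums were not tested, since 2 against 2 libraries can give no permutation p under 1 in 3.

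In the fit over all genes (edgeR quasi-likelihood test, adjusted p under 0.05 called), 64 members were tested and 13 were called, 7 higher in MON and 6 higher in NEU. Over all 14309 genes tested 42.6% were called, 20.8% higher in MON and 21.8% higher in NEU, against 20.3% of the tested members. At an unadjusted p under 0.05 there were 19. Both MON libraries lay above both NEU libraries in 21 tested members (35.2% of all genes), and the reverse held in 18 (39.9% of all genes). Of the 13, 10 came from the 45 members that passed the rule in both cell types, 4 of them higher in MON and 6 in NEU. By class, 4 of 20 tested Snord members were called, all higher in MON, 7 of 36 Snora members, 6 of them higher in NEU, and 2 of 8 Scarna members, both higher in MON. The median log2 fold change (MON over NEU) was 1.23 for Snord, -0.31 for Snora and 0.54 for Scarna, against -0.06 over all genes. Among the members that passed the rule in both cell types these medians were 0.48, -0.30 and 0.54, with 1 of 10 Snord members called, and all of these medians are descriptions of members chosen by their counts. The counts moved with single libraries. In each fit that leaves one out, the remaining library of that cell type is assumed to vary as the 2 libraries of the other do. Without MON library 1 there were 22 members called higher in MON, and without NEU library 2 there were 19, where the share of all genes so called was 25.9% and 13.4%. Without MON library 2, 18 were called higher in NEU (30.8% of all genes), and without NEU library 2 there were 3 (12.4%).

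**Figure D3:**
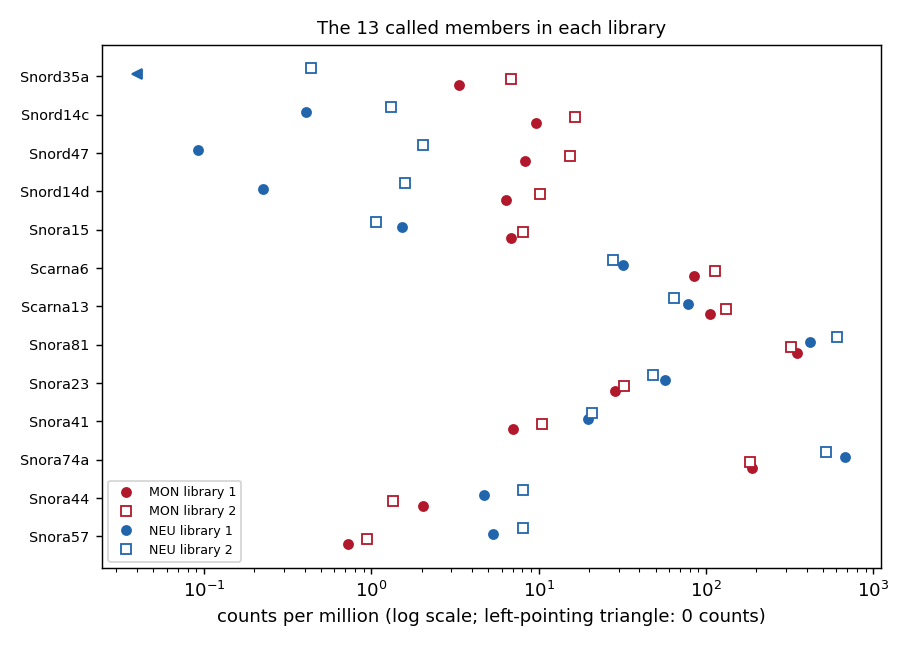
The 13 members that were called, in CPM (log scale) in each library, ordered by fold change with those higher in MON at the top. In each of the 13 the 2 MON libraries do not overlap the 2 NEU libraries, and Snord35a had 0 counts in NEU library 1.

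The RNAs that act in cleavage of the ribosomal RNA precursor were taken first. Snord14 (U14), needed for release of the small subunit RNA, was higher in MON. Snord14c stood at 9.66 and 16.6 CPM in MON and 0.408 and 1.31 CPM in NEU. It was 15.1-fold higher in MON (log2 3.92 ± 0.64 SE, adjusted p = 0.00549). Snord14d stood at 6.36 and 10.3 CPM in MON and 0.224 and 1.60 in NEU, and was also higher in MON (log2 3.17 ± 0.88, adjusted p = 0.0335). Because these copies differ at 2 bases, reads could be split between them, and the RSEM posterior spread of their counts was at most 4.41% for Snord14c and 8.26% for Snord14d. The other Snord14 entries of the tables, Snord14a and Snord14e, were not members, with single counts of 3 and 8.94 in MON library 1 and 0 elsewhere. Hspa8, the host of Snord14c and Snord14d, was called higher in MON as well (log2 1.19 ± 0.07, adjusted p = 0.000192 in the edgeR test).

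The other 4 processing RNAs were not called. Snord22 (U22, small subunit processing) stood at 85.3 and 209 CPM in MON and 58.1 and 150.3 in NEU, so the groups overlapped (log2 0.50 ± 0.57, adjusted p = 0.527). Snora73a and Snora73b (U17, H/ACA RNAs needed for the small subunit) are 96.6% identical over 205 bases and lie in the noncoding gene Snhg3. Snora73a was at 15.9 and 18.5 CPM in MON and 18.6 and 23.2 in NEU (log2 -0.28 ± 0.20, adjusted p = 0.310). Snora73b was at 18.1 and 32.7 CPM in MON and 26.9 and 35.5 in NEU (log2 -0.30 ± 0.31, adjusted p = 0.490). Snord118 (U8, needed for the large subunit RNAs) was rare, with counts of 3 and 12 in MON and 22 and 17 in NEU (log2 -1.64 ± 1.08, adjusted p = 0.279). Of the 6 members in this group, 2 were called, both higher in MON. Of all genes 42.6% were called, and 20.8% were called higher in MON. Snord14c and Snord14d are the members of the group shorter than 100 bases, and the other 4 are 126 to 205 bases long.

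Snord genes under 100 bases were mostly guides hosted by ribosomal protein and noncoding genes. Of 12 tested, 4 were called, all higher in MON (against 20.8% of all genes), and the log2 fold change was above 0 in all 12. This direction was not particular to Snord genes. The 985 other gene entries of 80 to 99 bases summed to 6.38 and 49.9 CPM in MON and 0.270 and 6.02 in NEU. Their MON over NEU ratio was 8.95, against 3.89 for the 11 members of that length. Of the 13 short Snord members, 10 had passed the rule in MON only, among them the called Snord14d, Snord47 and Snord35a, so their direction was part of their choice. Snord47, a guide for the large subunit RNA in Gas5, stood at 8.32 and 15.4 CPM in MON and 0.0924 and 2.04 in NEU (log2 3.47 ± 1.09, adjusted p = 0.0494). Its host Gas5 was at 181 and 159 CPM in MON and 196 and 188 in NEU and was not called (log2 -0.18 ± 0.09, adjusted p = 0.185). Snord87, in Snhg6, was at 8.17 and 25.3 CPM in MON and 0.139 and 3.36 in NEU and missed the threshold (log2 3.26 ± 1.18, adjusted p = 0.0759).

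The introns of Rpl13a, a large subunit protein gene, hold a group of C/D box RNAs whose members are known for a role in metabolic stress besides rRNA methylation. Snord35a had counts of 87 and 174 in MON and 0 and 9 in NEU and was called (log2 4.51 ± 1.33, adjusted p = 0.0404). Snord33 stood at 14.5 and 23.6 CPM in MON and 0.0924 and 11.3 in NEU and was not called (log2 1.73 ± 1.34, adjusted p = 0.350). Snord32a stood at 0.575 and 1.57 CPM in MON and 0.185 and 1.80 in NEU, with overlapping groups (log2 0.10 ± 1.26, adjusted p = 0.957). These RNAs share one host, whose own log2 fold change was 0.66 ± 0.11 (adjusted p = 0.00622), and their fold changes ran from 0.10 to 4.51.

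The low NEU values of these short RNAs came in part from one library. For Snord33 NEU library 2 was close to MON library 1, and for Snord21, a guide in Rpl5, the levels were 57.6 and 83.5 CPM in MON and 2.15 and 44.0 in NEU (log2 1.61 ± 1.09, adjusted p = 0.292). Without NEU library 1 the 4 short Snord genes were called again, with log2 fold changes of 3.29 for Snord14c (adjusted p = 0.00109), 2.34 for Snord14d (0.0285), 2.51 for Snord47 (0.00805) and 3.50 for Snord35a (0.0362). Of the 4, only Snord14c had passed the rule in both cell types. Without NEU library 2 the fitted values were 4.95, 5.12, 6.91 and 9.95, the last against 0 counts and thus no bound. With the effective length of each gene in each library as an offset, which was set to 1 base for these 2 RNAs because their deposited value is 0, Snord47 (log2 3.47, adjusted p = 0.0646) and Snord35a (log2 4.51, adjusted p = 0.0522) were not called. An offset of 1 base in every library makes no length correction for these 2 RNAs, so this setting cannot show how length bears on them. Snord47 also missed the threshold by a small margin with DESeq2 size factors (log2 3.48, adjusted p = 0.0504) and with upper-quartile scaling (log2 3.42, adjusted p = 0.0527).

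**Figure D4:**
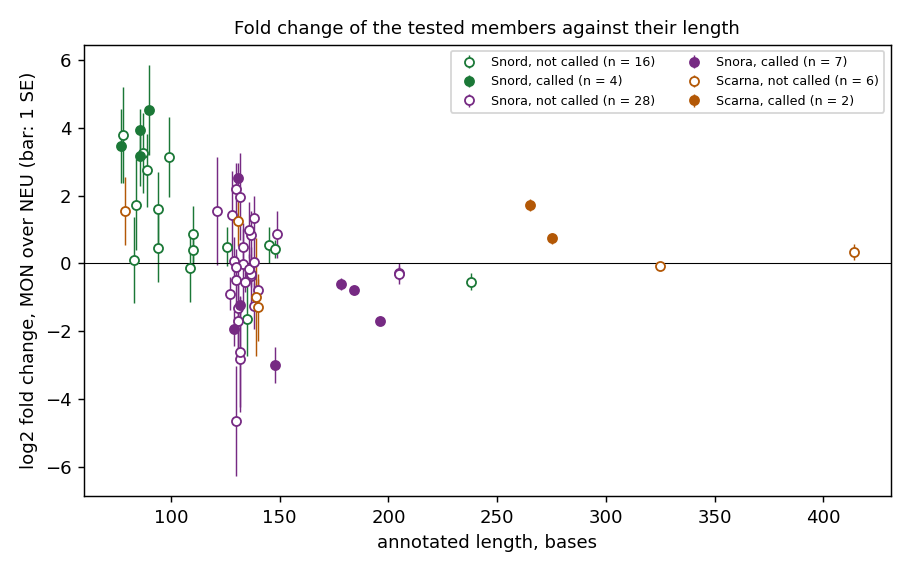
Log2 fold change (MON over NEU) of the tested members other than Snora43 against annotated length in bases, with bars of 1 standard error and filled points for called members. The Snord genes under 100 bases lie above 0 with wide errors, the Snora genes of 120 to under 150 bases spread on both sides, and the errors shrink above 150 bases.

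None of the 8 tested Snord genes of 100 bases or more was called in the edgeR test, and 0 of them had an unadjusted p under 0.05. The DESeq2 test called none of them either, whereas limma on log2(TPM + 1) called Snord15a higher in MON. Snord15a and Snord15b (U15, guides in Rps3) both stood higher in MON by their means without being called in the edgeR test. Snord15b was at 130.2 and 355 CPM in MON and 106 and 226 in NEU (log2 0.54 ± 0.54, adjusted p = 0.473), and Snord15a at 28.2 and 42.9 CPM in MON and 23.2 and 29.7 in NEU (log2 0.42 ± 0.25, adjusted p = 0.232). Snord17, in an intron of the sorting nexin gene Snx5, is 238 bases long and was at 263 and 340.0 CPM in MON and 332 and 542 in NEU (log2 -0.54 ± 0.26, adjusted p = 0.146). In these 3 RNAs the cell types overlapped.

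The 6 members called higher in NEU were all Snora genes, 6 of the 36 tested, against 21.8% of all genes. The search found no ACA in Snora81 and Snora44, so their H/ACA class rests here on the name. Snora74a had the smallest adjusted p of all members. It stood at 188 and 183 CPM in MON and 680 and 522 in NEU, a 3.24-fold higher level in NEU (log2 -1.69 ± 0.14, adjusted p = 0.000447). Snora81 stood at 350.4 and 321 CPM in MON and 417 and 603 in NEU (log2 -0.61 ± 0.18, adjusted p = 0.0437), and without NEU library 2 it was not called (log2 -0.33). With the effective length offset Snora81 was not called either. Snora23, in the nuclear import gene Ipo7, was at 28.4 and 32.4 CPM in MON and 56.8 and 48.4 in NEU (log2 -0.79 ± 0.15, adjusted p = 0.00906), and lost its call without NEU library 1 (log2 -0.69, adjusted p = 0.0718).

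The other 3 Snora genes called in NEU were of lower level. Snora57, the RNA with no gene around it, had 19 and 24 counts in MON and 115 and 166 in NEU, which was 8.0-fold higher in NEU (log2 -3.00 ± 0.52, adjusted p = 0.00721). Without NEU library 2 it was not called (log2 -2.68, adjusted p = 0.111). Snora41, in the elongation factor gene Eef1b2, was at 6.98 and 10.5 CPM in MON and 19.8 and 20.9 in NEU (log2 -1.23 ± 0.26, adjusted p = 0.0147). Snora44, in the noncoding gene Snhg12, was at 2.03 and 1.35 CPM in MON and 4.74 and 8.02 in NEU (log2 -1.93 ± 0.52, adjusted p = 0.0307). It lost its call without either NEU library (log2 -2.28 and -1.52), and also with the effective length offset.

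Snora15 was the only Snora gene called higher in MON. It stood at 6.83 and 8.11 CPM in MON and 1.53 and 1.07 in NEU (log2 2.52 ± 0.45, adjusted p = 0.00766). Its host Cct6a was called in the same direction (log2 0.86 ± 0.13, adjusted p = 0.00369 in the edgeR test). Among the more abundant Snora genes that were not called, Snora62 (in Rpsa) was at 32.8 and 81.6 CPM in MON and 13.1 and 49.9 in NEU, and Snora7a (in Rpl32) at 13.2 and 24.4 in MON and 28.4 and 36.4 in NEU. Snora33 (in Rps12), at 16.0 and 27.8 CPM in MON and 7.40 and 33.9 in NEU, overlapped between the cell types. So did Snora24 (within Snhg8), at 14.7 and 20.8 in MON and 13.3 and 24.7 in NEU. Of the 36 Snora genes tested, 29 were not called. For 5 Snora members, Snora3, Snora19, Snora26, Snora61 and Snora75, the posterior spread of the read assignment passed 10% of the count in a library, so their values are uncertain.

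Of the 8 scaRNAs, 4 are 265 to 414 bases long and held most of the scaRNA counts. Scarna6 (U88), whose ends carry C and D boxes, stood at 85.3 and 113 CPM in MON and 32.1 and 27.9 in NEU, a 3.30-fold higher level in MON (log2 1.72 ± 0.17, adjusted p = 0.00100). Scarna13 (U93), an H/ACA type scaRNA, was at 106 and 131 CPM in MON and 77.8 and 64.5 in NEU, 1.66-fold higher (log2 0.73 ± 0.15, adjusted p = 0.0131). Scarna10, the member with the highest mean CPM, was at 1012 and 1042 CPM in MON and 1007 and 1151 in NEU. Its libraries overlapped between the cell types (log2 -0.07 ± 0.09, adjusted p = 0.579). Scarna2, transcribed on its own and a guide for U2, was at 400 and 246 CPM in MON and 229 and 281 in NEU (log2 0.34 ± 0.24, adjusted p = 0.310).

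The other 4 scaRNAs were rare. Scarna8 had counts of 64 and 49 in MON and 24 and 15 in NEU (log2 1.24 ± 0.73, adjusted p = 0.226). Scarna17 had 16 and 13 in MON and 5 and 3 in NEU. Scarna3a had 7 and 34 in MON and 43 and 40 in NEU, and its relative Scarna3b, 85.7% identical, had 0 and 30 in MON and 15 and 34 in NEU. None of these 4 was called in the edgeR test on all 4 libraries. Scarna8 was called with limma on log2(TPM + 1), and Scarna3a and Scarna3b without MON library 2, both higher in NEU.

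The snoRNAs of the imprinted clusters known from brain were looked for as a group apart. The tables hold 17 entries for Snord116, and 1 each for Snord64 and Snord107, and all of them were at 0 counts in the 4 libraries. With 3 counts as the limit that a count of 0 allows, this corresponds to at most 0.115 to 0.146 CPM per entry and library, for counting error only. Since most Snord entries under 100 bases were at 0, these libraries put a weak limit on such RNAs.

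Of the 66 members, 55 lie in an intron of a gene on the same strand that the tables also hold. These members share 48 host genes, and 43 of the 55 lie in a host annotated as protein-coding, 19 of them in a gene for a ribosomal protein. Cct6a, the host of Snora15, is annotated as a processed transcript and is not counted among the 43. For 28 of the 55 the annotation also has an exon of the host over the RNA, so host reads could be counted to the RNA or the reverse. The called Snord14c, Snord14d, Snord47, Snora15, Snora44 and Snora81 were among these 28. Another 5 members lie within a gene that was not paired here (Snord22 in Snhg1, Snora24 in Snhg8, Scarna13 in Snhg10, Snora26 in Dancr and Snora74a in a noncoding gene), and 6 had no gene around them on their strand, among them Snora57, Scarna2 and Snord118.

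Host genes were called mostly in MON. Of 46 host genes tested, 22 were called higher in MON and 3 higher in NEU, against 20.8% and 21.8% of all genes. In 28 of the 53 tested pairs the member and its host had the same sign of fold change, and 5 of the 10 called members with a host did. Across the 53 pairs the fold changes of member and host had a Spearman's rho of 0.18, given as a description, since the pairs share the same 4 libraries and some share a host.

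**Figure D5:**
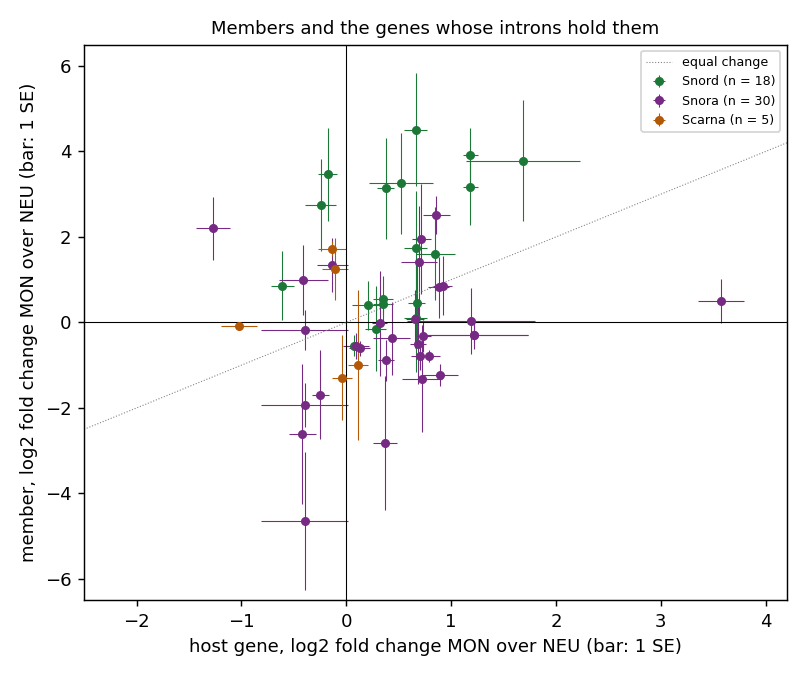
Log2 fold change (MON over NEU) of each member against that of the gene whose intron holds it, for 53 pairs, with bars of 1 standard error and a dotted line of equal change. Most hosts lie to the right of 0, while members lie on both sides of 0.

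The ratio of member to host was tested over all 651 pairs of a gene nested in an intron (limma on log2 ratios), of which 4.3% were called. None of the 53 member pairs was called in the limma test, nor with a constant of 5 added to both counts, and 13 had an unadjusted p under 0.05. The smallest adjusted p was 0.0501, shared by 3 pairs, which were chosen after their values were seen. Snora23 was 1.57 lower on the log2 scale relative to Ipo7 in MON (SE 0.24), with Ipo7 at 148 and 168 CPM in MON and 96.5 and 87.0 in NEU, opposite in direction to Snora23. Snora9 was 3.24 lower relative to Snhg15 (SE 0.49), a noncoding host at 39.5 and 52.3 CPM in MON and 3.68 and 4.01 in NEU, whereas Snora9 itself was at 4.86 and 13.3 CPM in MON and 7.09 and 5.87 in NEU. The annotation also has an exon of Snhg15 over Snora9. Snhg3, a host at 3.87 and 6.34 CPM in MON and 1.84 and 2.53 in NEU, was not called (adjusted p = 0.112 in the edgeR test). Snora73b, which also lies within the gene Rcc1, was 1.54 lower relative to Snhg3 (SE 0.24). The opposite sign was seen for Scarna6, 1.86 higher relative to Atg16l1 in MON (SE 0.37, adjusted p = 0.0724 in the limma test), with Atg16l1 at 103 and 80.4 CPM in MON and 100 and 101 in NEU. Without single libraries the calls changed. Without MON library 1 there were 2 ratios called higher in MON and 6 higher in NEU (26.8% of all pairs), without MON library 2 there were 1 and 10 (23.5%), and without NEU library 2 there were 2 and 0 (0.541%).

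Members of one host could be compared within a transcript. The 3 members in Snhg12, Snora16a, Snora44 and Snora61, had log2 fold changes of -0.17, -1.93 and -4.64, of which that of Snora44 was called, while Snhg12 was at -0.40 (adjusted p = 0.488). In Snora61 the MON libraries held 0 and 0.242 CPM and the NEU libraries 1.0 and 5.05. In Rps3, Snord15a and Snord15b lay close together at 0.42 and 0.54, and the host at 0.35. The differences between members of a host were not tested.

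The protein partners of these RNAs were read from the same fit, in 7 lists of 46 genes, all tested. Together 10 were called higher in MON and 5 higher in NEU, against 20.8% and 21.8% of all genes. Among the 4 core proteins of C/D box particles, Nop58 was at 92.7 ± 3.7 CPM (SD, n = 2) in MON and 58.2 ± 3.2 in NEU (log2 0.67 ± 0.11 SE, adjusted p = 0.00515). Snu13, the protein that first binds the C/D motif, was at 44.9 ± 1.4 CPM in MON and 29.3 ± 0.86 in NEU (log2 0.61 ± 0.13, adjusted p = 0.0126). Fbl, the methyltransferase fibrillarin, and Nop56 were not called, at log2 0.20 ± 0.16 and -0.01 ± 0.12. The 4 core proteins of H/ACA particles, with the pseudouridine synthase Dkc1 at log2 -0.20 ± 0.14, gave 0 calls in the edgeR test and 0 in the DESeq2 test. In edgeR 2 of them had an unadjusted p under 0.05, Nhp2 (log2 0.94 ± 0.31, adjusted p = 0.0590) and Nop10 (log2 0.61 ± 0.23, adjusted p = 0.0829).

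Of the 10 assembly factors, Nufip1 was higher in MON (log2 1.42 ± 0.21, adjusted p = 0.00396) and the ATPase Ruvbl2 higher in NEU (log2 -0.68 ± 0.17, adjusted p = 0.0237). None of the 5 genes of Cajal bodies and scaRNA particles was called in the edgeR or the DESeq2 test, and 1 had an unadjusted p under 0.05 (Sart3, log2 -0.37 ± 0.13). Coilin (Coil), the scaffold of the Cajal body, stood at log2 0.05 ± 0.53 and the scaRNA-binding protein Wrap53 at -0.48 ± 0.56. In trimming and decay, 2 of 7 were called higher in MON and 1 higher in NEU, against 20.8% and 21.8% of all genes. Dbr1, which opens the intron lariats from which most snoRNAs are released, stood at 40.4 ± 0.49 CPM in MON and 17.3 ± 3.4 in NEU (log2 1.22 ± 0.18, adjusted p = 0.00372). The exonuclease Xrn2 was higher in MON (log2 0.73 ± 0.07, adjusted p = 0.00103), and Exosc10, the nuclear exosome nuclease that trims snoRNA ends, higher in NEU (log2 -0.61 ± 0.13, adjusted p = 0.0161).

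In the U3 particle and ribosome processing list, 4 of 10 were called, all higher in MON (20.8% of all genes). These were the nucleolar proteins Npm1 (log2 0.80 ± 0.08, adjusted p = 0.00108), Wdr43 (0.66 ± 0.09, 0.00324), Utp3 (0.48 ± 0.13, 0.0285) and nucleolin (Ncl, 0.32 ± 0.08, 0.0208). RNA polymerase I, which makes the ribosomal RNA precursor, gave 1 call in MON, Taf1b (0.91 ± 0.16, 0.00747), and 3 in NEU, Polr1a (-0.56 ± 0.15, 0.0277), Polr1b (-0.94 ± 0.25, 0.0297) and Taf1c (-1.32 ± 0.37, 0.0338), against 20.8% and 21.8% of all genes. The 5 genes called in NEU did not keep their calls in fits that left out a NEU library. In those fits fewer of all genes were called in that direction too. With limma on log2(TPM + 1) there was 1 call in that direction, where 19.4% of all genes were so called.

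Of 7 other nuclear RNAs tested, 1 was called higher in MON and 3 higher in NEU, against 20.8% and 21.8% of all genes. The polymerase III RNA Rn7sk was at 28422 ± 5336 CPM (SD, n = 2) in MON and 20203 ± 1305 in NEU, and the telomerase RNA Terc, which itself ends in an H/ACA domain, was at 4.29 ± 4.1 and 4.51 ± 3.1 CPM. The nuclear RNAs Malat1 (log2 -0.41 ± 0.08, adjusted p = 0.0114), Neat1 (-0.78 ± 0.12, 0.00477) and Kcnq1ot1 (-1.84 ± 0.12, 0.000225) were higher in NEU.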

How the data were processed

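Total RNA-seq of 2 MON and 2 NEU libraries was used, grouped by the cell type named in the labels. Per the labels, TRIzol-extracted RNA was freed of DNA and of ribosomal RNA, then primed with tagged random hexamers and amplified by PCR. The libraries carry no molecular identifiers, so intervals and limits cover counting error only. The authors aligned reads to mm10 with STAR and ran RSEM per library. The deposited tables give expected counts, which share reads that match several genes, with their posterior mean counts and the posterior spread, TPM, and the annotated and effective length in bases. How the counting used strand was not found in the labels or methods, so reads of a gene and of an antisense gene may not be told apart.

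Each table held 69690 entries, of which 43346 were gene entries, 96 were spike-in controls and 26248 had a numeric identifier. The last 2 kinds were left out (at most 0.000594% of a library's counts). Symbols, types, coordinates and sequences came from GENCODE M21 on mm10 by gene identifier (42462 matched, 98.0%). The annotation release behind the tables may differ. Snora43 has an entry that also holds a long transcript, so its value is not that of the snoRNA alone. The members and the lists were chosen with earlier results of these data known. Genes named in the text are the 8 Snord and 8 Snora members highest by mean CPM and per length, the called members that did not overlap between groups, all Scarna genes, the members acting in rRNA processing, those in Rpl13a, Gas5 and Snhg1, the core proteins and the called genes of the protein lists. Other members named were chosen after their values were seen.

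Expected counts were rounded, filtered with filterByExpr (14309 genes left) and scaled by TMM (factors 0.994 to 1.01). MON was compared with NEU by the edgeR quasi-likelihood F test with Benjamini-Hochberg adjustment over all genes tested (edgeR 4.0.16, R 4.3.3). CPM is the count per 1000000 gene counts. The log2 ratio of each intron-nested gene to its host, with 0.5 added to both counts, was tested with limma 3.58.1 over all pairs with at least 10 counts in at least 2 libraries. DESeq2 1.42.0, limma on log2(TPM + 1) and on log2(TPM + 0.1), posterior mean counts, an effective length offset, a test against a 2-fold change, other scalings and filters, and leaving out each library were run as alternatives. The fits were tested on simulated counts.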

Additional observations from a re-analysis of the deposited data

How the results depend on the processing

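The 7 members called higher in MON became 12 with no filter on low counts (14.8% of all genes), 2 with at least 10 CPM in 2 libraries (30.9%) and 3 when tested against a 2-fold change (6.53%), and 8 to 22 when one library was left out. The 6 called higher in NEU became 2 against a 2-fold change (7.37%) and 3 to 18 when one library was left out. The filter at 10 CPM left 25 members to test, and the test against a 2-fold change asks for a larger effect. With the effective length offset Snora44, Snora81, Snord47 and Snord35a lost their calls, and Snora30 gained one. The new calls with no filter included Snora7a, Snora61 and Snord17, whose log2 fold changes in the main fit were below 0. With limma on log2(TPM + 1) 7 were called in MON, of which 3 (Scarna13, Scarna6 and Snora15) were among the edgeR calls. The other 4 (Scarna8, Snora30, Snora34 and Snord15a) were not, and the 4 short Snord genes were not tested there. Of 14 called by limma in either direction 7 were shared, and Snora23 and Snora81 were not among them. The limma calls in NEU included Snord16a, whose deposited TPM was 0 in both MON libraries. Its counts were 45 and 154 in MON and 2 and 16 in NEU, so that call ran against the counts. Snora74a, Scarna6, Snora15 and Snord14c kept their call in every setting in which they were tested, those with 1 library in a cell type included. For Snord14c, whose deposited effective length was 0, the effective length offset made no length correction. Of the protein genes, 10 in MON became 0 against a 2-fold change and 6 to 15 without one library. The 5 in NEU became 1 with limma on either log2(TPM + 1) or log2(TPM + 0.1), 2 with the effective length offset, 0 against a 2-fold change and 0 to 8 without one library. Member to host ratios, 0 called in either direction, gave 0 to 2 higher in MON and 0 to 10 higher in NEU without one library.

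The log2 ratio of summed levels (MON over NEU) moved with the scale. For all members it was -0.15 in CPM, 0.19 in TPM and 0.25 without the 3 highest members. For Snora it was -0.77, then -0.20 in TPM and -0.059 without the 3 highest, and for Scarna 0.13, then 0.26 and 0.60. For members of 150 bases or more (other than Snora43) it was -0.33, then -0.47 in TPM, 0.026 without the 3 highest, which turns the sign, and -0.42 to -0.22 without one library. For members under 100 bases it was 2.06, and 1.14 to 5.18 without one library. Among single named genes 426 alternative values kept their call or lack of one, 29 gained a call and 23 lost it. The sign changed in 17 of these values, in 8 genes that were not called, and 12 of the 17 came from leaving out a library. Snord15b, Snord22, Snord32a, Snora73b, Snora33, Scarna2, Scarna10 and Snora24 were these 8. The cause of these shifts was not tested. No paired analysis was run. The library numbers follow the order of deposit, and whether a MON library shares mice or a day with a NEU library was not found. With 2 libraries per cell type, differences of rare members under 100 bases were not detectable unless very large.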
